A study of Mus musculus with 6 samples.

Results

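The NRF2 pathway was followed through 10 named genes: the transcription factor gene Nfe2l2 (NRF2), its inhibitor Keap1, and the antioxidant and efflux genes Nqo1, Hmox1, Txnrd1, Gclc, Gclm, G6pdx, Abcc1 and Fth1. All non-control probes with one of these gene names were taken, which were 14 of the 41174 probes and 10 of the 29742 gene names on the array. Nfe2l2 and Abcc1 had 3 probes each and the other 8 genes had 1, and each gene is represented here by its brightest probe. All cells were primary mouse embryonic fibroblasts (connective tissue cells grown from minced embryos) of a mixed strain background with a Black Swiss part, taken at embryonic day 15 by the labels and kept in DMEM with 10% serum. They were wild type or homozygous for an in-frame deletion of part of the helicase domain of Wrn, the mouse homologue of the gene mutated in Werner syndrome (Wrn Δhel/Δhel, called mutant here). The deletion removes part of the protein, not the whole gene, and is present in every cell. Treated cells received 0.5 mM H2O2 for 1 hour and then fresh medium, and their RNA was taken 24 hours later. The 6 arrays each carried a pair of RNAs in different dyes. Of these, 2 set treated (Cy5) against untreated (Cy3) wild type cells, 2 set treated (Cy5) against untreated (Cy3) mutant cells, and 2, the genotype arrays 3 and 4, set untreated cells of both genotypes against each other.

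In unstressed cells the KEAP1 protein holds NRF2 in the cytoplasm and directs its degradation. Oxidants and electrophiles modify cysteines of KEAP1, NRF2 then accumulates in the nucleus, pairs with a small MAF protein and binds antioxidant response elements of its target genes. These targets make glutathione, reduce thioredoxin and quinones, supply NADPH, store iron and export conjugates, and they are among the best known genes to answer H2O2 in fibroblasts. Much of this control acts on the NRF2 protein, which the arrays do not measure.

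All 11 fibroblast markers on the array stood well above background in Cy3 on all 6 arrays, with a median log2 intensity of 11.3, and the 4 skeletal muscle markers did so too at a median of 8.75. For macrophages 5 of 6 markers did, at a median of 5.03, and for mast cells 1 of 3, Mcpt8. The 3 neural markers did too, at a median of 6.92, as did 1 of 5 endothelial and 1 of 2 epithelial markers. The spots were bright for all 10 genes, from a mean log2 intensity of 7.88 for Gclc, above 82.1% of all probes, to 14.6 for Fth1. No spot of the 10 representative probes was saturated, and every one stood well above background in both dyes on all 6 arrays. The extraction software had marked between 0.400% and 22.6% of the spots of an array as outliers, the most on wild type array 2, where 60.3% of spots in the brightest of 4 equal classes and 0.0867% in the dimmest carried the mark. Of the 60 spots of the 10 probes, 11 were marked, 5 of them on wild type array 2. Marked spots were left out of the fits, so values are given without them and, where a gene lost one, also with it kept. In RNA from whole cultures, fewer cells of a type and less RNA per cell cannot be told apart.

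Promoter sequence bears on these genes because the antioxidant response element is the site that defines the pathway. RefSeq start sites of the build GRCm38.p6 were given for 7 of the 10 genes, and the 250 bases before each start were searched on both strands for the letters TGACNNNGC, the core of the element. The core was found before Nfe2l2, Gclm, G6pdx and 1 of the 3 starts of Txnrd1, thus in 4 of 7 genes, and in 11.5% of all 27025 genes of the same table. The match lay at position -240 from the start for Nfe2l2, -134 for Gclm, -92 for Txnrd1 and -57 for G6pdx, counted at its left end as printed. Hmox1, Gclc and Abcc1 had no entry in the table. A match of letters describes the window and does not show that NRF2 binds there, and elements farther from the start were not searched. The 4 windows with a match are printed with the core in capitals, followed by that of Nqo1, which had the highest ratios of the 10 genes, and in which these letters did not occur:
Nfe2l2, chr2:75704664-75704913, minus strand: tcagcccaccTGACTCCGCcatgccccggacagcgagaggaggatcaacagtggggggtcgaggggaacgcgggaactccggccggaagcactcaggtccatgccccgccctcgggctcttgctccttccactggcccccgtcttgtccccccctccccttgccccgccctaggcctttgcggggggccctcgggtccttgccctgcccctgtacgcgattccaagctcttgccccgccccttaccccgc
Gclm, chr3:122245307-122245556, plus strand: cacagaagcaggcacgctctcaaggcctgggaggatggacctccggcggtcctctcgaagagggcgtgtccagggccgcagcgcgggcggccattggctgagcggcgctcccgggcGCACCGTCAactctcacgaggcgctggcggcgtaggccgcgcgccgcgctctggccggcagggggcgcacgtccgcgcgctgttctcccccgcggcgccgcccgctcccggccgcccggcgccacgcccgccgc
Txnrd1, chr10:82858956-82859205, plus strand: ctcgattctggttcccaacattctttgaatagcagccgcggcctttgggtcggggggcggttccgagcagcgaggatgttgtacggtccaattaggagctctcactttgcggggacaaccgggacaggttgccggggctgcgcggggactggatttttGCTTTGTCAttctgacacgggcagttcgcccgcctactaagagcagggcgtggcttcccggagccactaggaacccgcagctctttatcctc
G6pdx, chrX:74428881-74429130, minus strand: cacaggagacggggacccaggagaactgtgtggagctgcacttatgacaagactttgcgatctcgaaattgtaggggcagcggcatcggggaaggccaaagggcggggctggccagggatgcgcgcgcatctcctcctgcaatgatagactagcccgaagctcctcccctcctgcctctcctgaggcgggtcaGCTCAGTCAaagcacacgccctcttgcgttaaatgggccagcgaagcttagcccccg
Nqo1, chr8:107403206-107403455, minus strand: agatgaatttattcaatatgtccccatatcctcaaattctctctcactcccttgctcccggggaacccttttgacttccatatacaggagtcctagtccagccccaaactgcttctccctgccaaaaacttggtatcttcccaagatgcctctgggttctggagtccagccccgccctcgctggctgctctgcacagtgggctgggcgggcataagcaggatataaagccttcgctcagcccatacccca

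The first comparison asked how the 10 genes answered H2O2 in wild type cells. On both wild type arrays, with marked spots kept, 9 of the 10 genes had more signal in treated than in untreated cells, against 37.3% of all probes, and Keap1 alone had less on both, against 36.5%. With marked spots left out, no member was called by limma at a Benjamini-Hochberg adjusted p under 0.05, where 0.258% of all probes were, and 6 of the 9 genes with a value had an unadjusted p under 0.05, all 6 higher, against 9.98% of all probes. Of these 6 genes, Nqo1, Txnrd1 and Abcc1 had a value on 1 wild type array only. The median log2 ratio of the 9 genes was 0.56, and it was -0.01 over all probes. The 10 genes were chosen with earlier results of these data known, so the shares of all probes are no test of them. With marked spots kept, 3 of the 10 genes rose at the adjusted threshold, Nqo1, Txnrd1 and Gclc, where 1.17% of all probes did. Treated RNA was in Cy5 on all 4 treatment arrays, so each ratio also holds any bias of that probe between the dyes, whose part was not tested.

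Nqo1 encodes a quinone reductase and is the most widely used reporter of NRF2 activity. Its log2 ratio was 1.61 on wild type array 1 and 1.23 on array 2, where its spot was marked, which are 3.06-fold and 2.35-fold. The fit gave 1.42 (SE 0.17, n = 2, limma adjusted p = 0.0293) with the marked spot and 1.60 (SE 0.26, adjusted p = 0.0663) from array 1 alone. This was the largest ratio among the 10 genes on each of the 2 arrays.

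Txnrd1, the cytosolic thioredoxin reductase, had log2 ratios of 1.05 and 1.03 on wild type arrays 1 and 2, the second from a marked spot. The fit gave 1.04 (SE 0.16, adjusted p = 0.0368) with that spot and 1.00 (SE 0.24, adjusted p = 0.0955) without it. Gclc, the catalytic subunit of glutamate-cysteine ligase, which makes the first step of glutathione synthesis, had ratios of 0.98 and 0.84 and no marked spot. Its fitted value was 0.92 (SE 0.15, adjusted p = 0.0536), and 0.91 (adjusted p = 0.0413) when marked spots were kept on the arrays. Gclm, the modifier subunit of the same enzyme, stood at 0.24 and 0.02, so that the catalytic subunit lay above the modifier subunit on both arrays.

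G6pdx, which supplies NADPH through the pentose phosphate pathway, had log2 ratios of 0.52 and 0.58. Abcc1, an exporter of glutathione conjugates, had 0.63 and 0.39, the second from a marked spot. Fth1, the ferritin heavy chain, which stores iron, had 0.61 and 0.77, both from marked spots, and thus had no value when marked spots were left out. None of these 3 genes passed the adjusted threshold, with limma adjusted p between 0.0986 and 0.127 with marked spots kept. Hmox1, the inducible haem oxygenase and a classical H2O2 target, had ratios of 0.20 and 0.44 (fitted value 0.32, SE 0.33, adjusted p = 0.644, marked spot kept).

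The regulators themselves had opposite signs in treated wild type cells. Nfe2l2 had log2 ratios of 0.52 and 0.66 (fitted value 0.56, SE 0.19, adjusted p = 0.173), and its second bright probe had 0.48 and 0.49. Keap1 had ratios of -0.40 and -0.49 (fitted value -0.44, SE 0.17, adjusted p = 0.259), although its value turned to 0.11 when each array was centred on its median in place of loess. The third Nfe2l2 probe was not well above background in Cy5 on any array. The 2 dimmer Abcc1 probes lay between -0.17 and 0.37 on the wild type arrays, below the brightest one.

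In treated wild type cells the median log2 ratio of the fibroblast markers, marked spots kept, was -0.78 over the 11, from -1.62 to 0.94, and 1 of them, Col3a1, was called lower, against 1.22% of all probes. The median of the 4 muscle markers was -0.47, and none was called. In mutant cells the fibroblast median was -0.06. The part of these shifts in the ratios of the 10 genes was not tested.

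The wild type counts depended on the 2 genotype arrays, which lend their spread to the fit and correlated with each other at r = 0.542 across probes, against r = 0.783 for the wild type pair. Without genotype array 3, or without genotype array 4, 7 members were called in wild type cells (6 higher, Keap1 lower), where 22.8% of all probes were called. Fitted on the 2 wild type arrays alone, the count was also 7, against 25.1% of all probes.

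**Figure D1:**
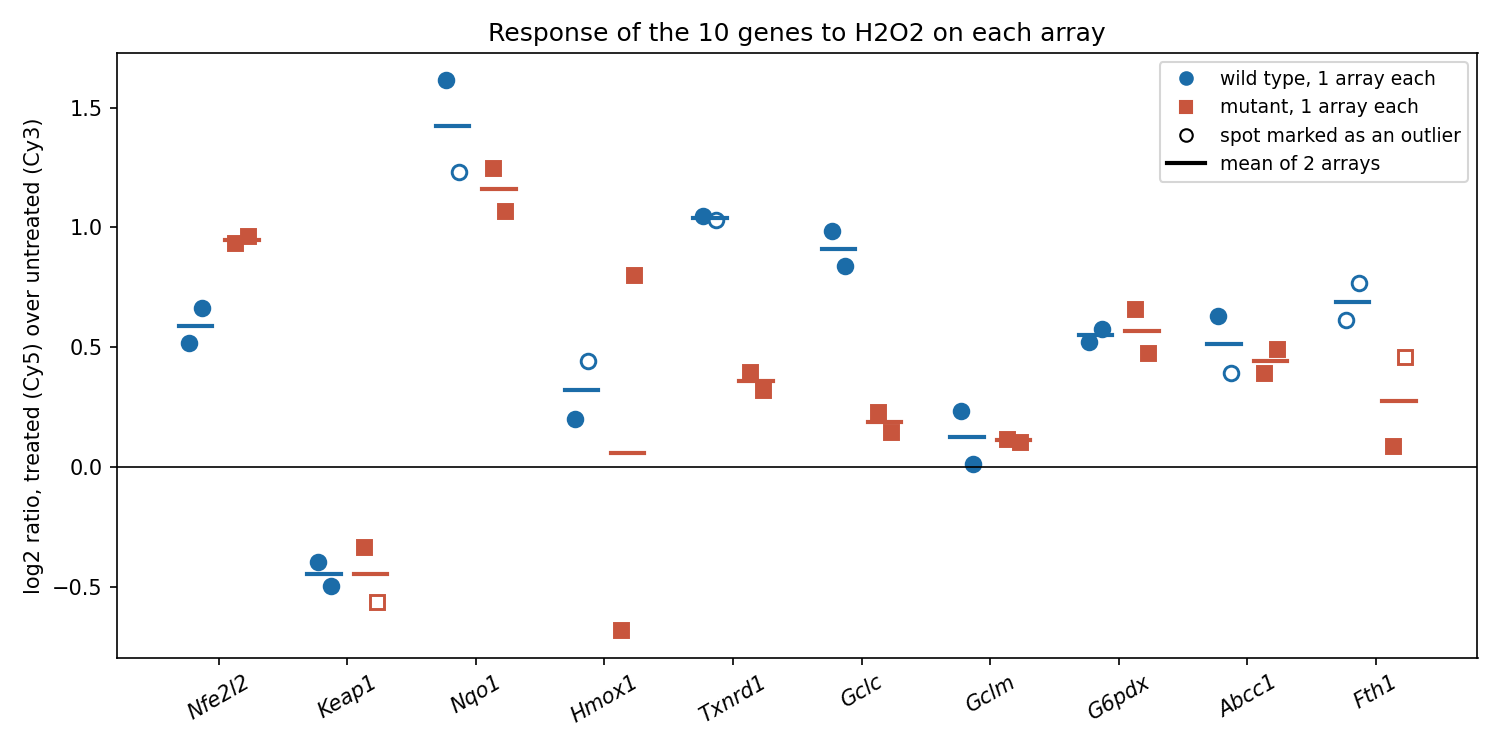
Log2 ratio of treated (Cy5) over untreated (Cy3) signal for each of the 10 genes, 1 point per array, with wild type arrays as circles, mutant arrays as squares, open symbols for spots marked as outliers and bars for the mean of 2 arrays. Nqo1 was highest in both genotypes, Txnrd1 (1.05 and 1.03 against 0.40 and 0.32) and Gclc (0.98 and 0.84 against 0.23 and 0.15) were lower in mutant cells, and the mutant arrays disagreed for Hmox1.

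In mutant cells the same question was asked with the same dyes. With marked spots kept, 8 of the 10 genes had more signal in treated cells on both mutant arrays, against 35.3% of all probes, and Keap1 had less on both, against 33.5%. No member was called at an adjusted p under 0.05, and neither was any probe of the array (0%), while 4 of 10 members had an unadjusted p under 0.05, all higher, where 5.81% of all probes did. The median log2 ratio of the 10 genes was 0.25, and 0.01 over all probes. Without genotype array 3, or without array 4, 3 members were called, Nfe2l2, Nqo1 and G6pdx, all higher, where 9.91% of all probes were called.

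Nqo1 had log2 ratios of 1.25 and 1.07 on mutant arrays 1 and 2 (fitted value 1.12, SE 0.18, limma adjusted p = 0.230), again the largest of the 10 genes on each array. Nfe2l2 followed with 0.93 and 0.96 (fitted value 0.90, SE 0.19, adjusted p = 0.243), and its second bright probe had 0.66 and 0.84. G6pdx had 0.66 and 0.48, and Abcc1 had 0.39 and 0.49. Txnrd1 stood at 0.40 and 0.32, Gclc at 0.23 and 0.15, and Gclm at 0.12 and 0.11. Fth1 had 0.09 and 0.46, the second from a marked spot. Keap1 had -0.33 and -0.56, the second from a marked spot, and its fitted value of -0.33 turned to 0.73 under median centring. Hmox1 stood at -0.68 on mutant array 1 and at 0.80 on array 2, so its mean of 0.06 lay far from both arrays.

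The difference of the 2 responses, mutant minus wild type, was tested as a contrast of its own, in which a dye preference shared by both genotypes cancels. No member was called, and neither was any probe (0%). Across the 10 genes, with marked spots kept, both mutant ratios lay below both wild type ratios for Gclc, Txnrd1 and Fth1, against 24.1% of all probes, and above them for Nfe2l2, against 23.6% of all probes. With marked spots left out, the difference for Gclc was -0.73 (SE 0.21, 95% interval -1.23 to -0.23, limma unadjusted p = 0.0103, adjusted p = 0.721). Gclc was then the single member with an unadjusted p under 0.05, where 5.94% of all probes were. For Txnrd1 the difference was -0.69 (SE 0.29, interval -1.40 to 0.03) without the marked spot. With that spot it was -0.68 (SE 0.23, interval -1.21 to -0.15, limma unadjusted p = 0.0194, adjusted p = 0.671). For Nfe2l2 it was 0.34 (SE 0.27, interval -0.31 to 0.99), and for Nqo1 it was -0.26 (SE 0.24, interval -0.84 to 0.31) with the marked spot. For G6pdx it was 0.02 (SE 0.22, interval -0.49 to 0.54). The intervals for Nqo1, Nfe2l2 and G6pdx included 0 but were as wide as the responses themselves, so no equality can be read from them. Without genotype array 3, or without array 4, no member was called either, where 1.27% of all probes were called.

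The levels before treatment were compared within the Cy3 channel of the treatment arrays, which carried untreated mutant RNA on 2 arrays and untreated wild type RNA on 2. The dyes of these arrays are stated without contradiction, so the direction is settled, but the comparison runs between slides. The values are log2 intensities normalized between the 4 arrays, with marked spots kept, and levels of different probes are not compared. Nqo1 stood at 8.80 and 9.03 in untreated mutant cells and at 7.22 and 6.66 in untreated wild type cells. The mutant minus wild type difference was 1.97 (SE 0.34, 2 against 2 arrays, limma adjusted p = 0.0345), and Nqo1 was the single member called, where 0.639% of all probes were. With marked spots left out no member was called, where 0.420% of all probes were, and Nqo1 had 1.75 (SE 0.46, adjusted p = 0.205). Without wild type array 2, which leaves a single wild type array that is assumed to vary like the others, that value was called (adjusted p = 0.00187), where 1.69% of all probes were. Without mutant array 1 (2.14, adjusted p = 0.946) or mutant array 2 (1.36, adjusted p = 0.904) it was not called, where 0% of all probes were. In Cy5, treated wild type cells had Nqo1 levels of 8.83 and 7.89, and treated mutant cells had 10.05 and 10.10. Untreated mutant cells in Cy3 thus lay near treated wild type cells in Cy5 on wild type array 1. They lay above those on wild type array 2, where the spot was marked. For this comparison across dyes no test was made.

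Nfe2l2 followed the same order, with 9.80 and 9.91 in untreated mutant cells and 9.20 and 8.61 in untreated wild type cells, a difference of 0.95 (SE 0.34, adjusted p = 0.304). Its second bright probe had 9.83 and 9.97 against 8.96 and 8.49. Fth1 stood at 14.65 and 14.51 against 13.95 and 13.60, 3 of the 4 from marked spots (difference 0.81, adjusted p = 0.346), and Abcc1 at 8.46 and 8.42 against 7.99 and 7.68 (difference 0.60, adjusted p = 0.462). For these 4 genes, Nqo1 included, both mutant arrays lay above both wild type arrays, against 25.9% of all probes.

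The 2 subunits of glutamate-cysteine ligase ran the other way. Gclc stood at 7.23 and 7.11 in untreated mutant cells and at 8.13 and 7.74 in untreated wild type cells, a difference of -0.77 (SE 0.33, adjusted p = 0.366). Gclm had 7.58 and 7.95 against 8.61 and 8.02 (difference -0.55, adjusted p = 0.526). For both genes the mutant arrays lay below the wild type arrays. These were 2 of the 10 members, against 20.5% of all probes, so the count was near the general share. Neither difference passed the threshold with all 4 arrays. With marked spots left out, and without wild type array 1, which again leaves a single wild type array, both were called, Gclc at -1.43 (adjusted p = 0.00506) and Gclm at -1.12 (adjusted p = 0.0392), where 14.8% of all probes were. Neither was called without mutant array 1, without mutant array 2 or without wild type array 2. Txnrd1, Hmox1, Keap1 and G6pdx overlapped between the genotypes, and the difference for Txnrd1 was 0.52 with marked spots kept and -0.26 without.

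Among treated cells, compared within Cy5, Gclc was the single member called. It stood at 7.46 and 7.26 in treated mutant cells and at 9.11 and 8.58 in treated wild type cells. With marked spots left out the difference was -1.95 (SE 0.33, limma adjusted p = 0.0455), where 0.377% of all probes were called, and with them kept it was -1.49 (SE 0.38, adjusted p = 0.253), where 0.233% were. It was not called without mutant array 1 (-1.92, adjusted p = 0.684) or without mutant array 2 (-1.98, adjusted p = 0.870), where 0% of all probes were. With marked spots kept, both mutant arrays lay below both wild type arrays in Cy5 for Gclc, against 17.1% of all probes, and above them for Nqo1, Nfe2l2, Fth1 and Abcc1, against 22.1%. Nqo1 and Nfe2l2 had differences of 1.71 (SE 0.42, adjusted p = 0.230) and 1.31 (SE 0.37, adjusted p = 0.333) with marked spots kept. For probes with a mean log2 intensity between 8 and 11, the median within-dye difference was -0.22 in Cy3 and -0.14 in Cy5 with marked spots left out and 0.05 and 0.07 with them kept, so bright probes were shifted down in the former.

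**Figure D2:**
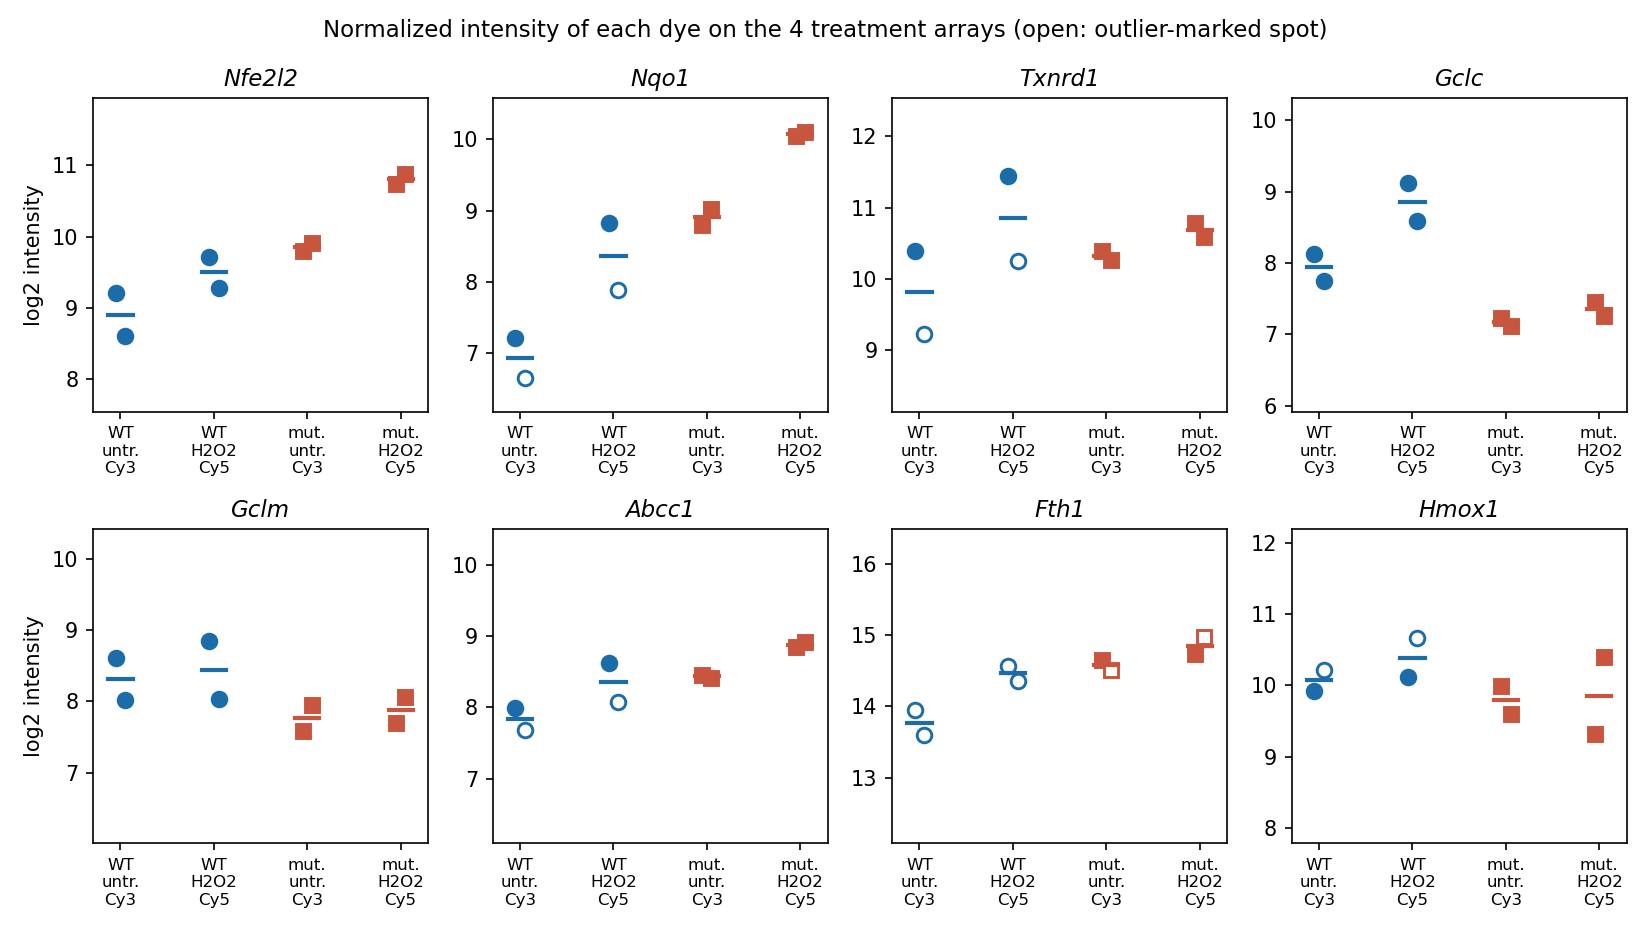
Normalized log2 intensity of 8 of the genes on the 4 treatment arrays, by genotype, treatment and dye, 1 point per array (wild type circles, mutant squares, open symbols for spots marked as outliers) with bars at the mean of 2 arrays and the same axis span in each panel. Untreated mutant cells (8.80 and 9.03) lay above untreated wild type cells (7.22 and 6.66) for Nqo1, and treated mutant cells (7.46 and 7.26) lay below treated wild type cells (9.11 and 8.58) for Gclc.

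Further untreated cultures of each genotype were set against each other on genotype arrays 3 and 4. The labels put wild type RNA in Cy5 and mutant RNA in Cy3, while the study's own list of mutant over wild type genes runs as Cy5 over Cy3. These records thus do not settle the direction of these arrays. Values are therefore given as Cy5 over Cy3, and the sign turns if the labels are followed and mutant over wild type is wanted. Across 40228 probes the ratios correlated at r = 0.606 with the mutant minus wild type differences within Cy3 of the treatment arrays, whose cultures are other ones, and at r = 0.962 for the 69 bright probes with a Cy3 difference above 2 in size. Of these 69 probes, 94.2% had the same sign in both, which is the sign that mutant RNA in Cy5 would give. With marked spots kept, the sign was the same for all 10 members and for 67.7% of all probes.

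On the genotype arrays 5 of 10 members were called at an adjusted p under 0.05, against 19.6% of all probes, 3 with more Cy5 and 2 with less. All 10 were bright, and bright probes were called more often. Among probes well above background in both dyes on both genotype arrays, fitted alone, 36.9% were called. Keeping marked spots, 6 were called, against 22.4% of all probes. Both arrays lay above 0 for 6 members, against 34.2% of all probes, and below 0 for 4, against 32.5%. Nqo1 had log2 ratios of 2.12 on array 3, from a marked spot, and 2.32 on array 4, a fitted value of 2.31 (SE 0.26, limma adjusted p = 0.00693) from array 4 alone and 2.22 (SE 0.17, adjusted p = 0.000641) with both. Nfe2l2 had 1.68 and 1.00 (fitted value 1.31, SE 0.19, adjusted p = 0.00662), and its second bright probe had 2.05 and 0.60, the latter from a marked spot. Abcc1 had 0.87 and 0.68 (fitted value 0.76, SE 0.16, adjusted p = 0.0272), but its 2 dimmer probes had -0.74 and 1.20, and -1.26 and 1.04, so the 3 probes of this gene disagreed on array 3.

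Both subunits of glutamate-cysteine ligase had less Cy5 than Cy3. Gclm had -1.86 and -0.84 (fitted value -1.37, SE 0.24, adjusted p = 0.0121) and Gclc had -0.55 and -0.61 (fitted value -0.60, SE 0.15, adjusted p = 0.0337). Fth1 had 1.57, from a marked spot, and 1.03, and was called with that spot kept (1.30, adjusted p = 0.00516). G6pdx had 0.51 on both arrays and was not called (adjusted p = 0.0702). Txnrd1 had 0.48 and 0.18. Hmox1 had -0.10 and -0.58, and Keap1 had -0.27 and -0.11, the latter from a marked spot. The fitted values of both genes turned positive under median centring. Without mutant array 1, or without mutant array 2, Gclc and Abcc1 were no longer called and 3 members were, where 9.01% of all probes were. Without wild type array 1, or without array 2, Gclc alone was lost, where 12.7% of all probes were called. Without genotype array 3, Fth1 was called as well (1.01, adjusted p = 0.00479), where 43.2% of all probes were. Without genotype array 4, Nqo1 had no value, since its spot on array 3 was marked, and the other 4 calls were made, where 28.9% of all probes were called.

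Markers of cell types also differed between the genotypes. On the genotype arrays, with marked spots kept, 6 of the 11 fibroblast markers were called, all with more Cy5, against 11.2% of all probes, with a median log2 ratio of 0.99 over the 11. Within Cy3 of the treatment arrays 1 of the 11 was called, Pdgfra, higher in mutant cells, against 0.435% of all probes. The log2 of the summed intensity of the 11 there was 16.4 and 16.6 in mutant cells and 16.0 and 15.8 in wild type cells. The summed level of the 3 mast cell markers was 6.82 and 6.51 in mutant cells and 10.1 and 9.18 in wild type cells. Mcpt8, a granule protease of basophils, was the single one called (-3.94 within Cy3). The 3 did not move together, since their differences within Cy3 ran from -3.94 to 0.74, with a median of -0.41. On the genotype arrays the muscle marker Myod1 was called with less Cy5, against 11.2% of all probes, and the neural marker Tubb3 with more, against 11.2%. No macrophage, endothelial or epithelial marker was called in any of the 6 comparisons. The part of these markers in the levels of Nqo1, Nfe2l2, Gclc and Gclm was not tested.

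**Figure D3:**
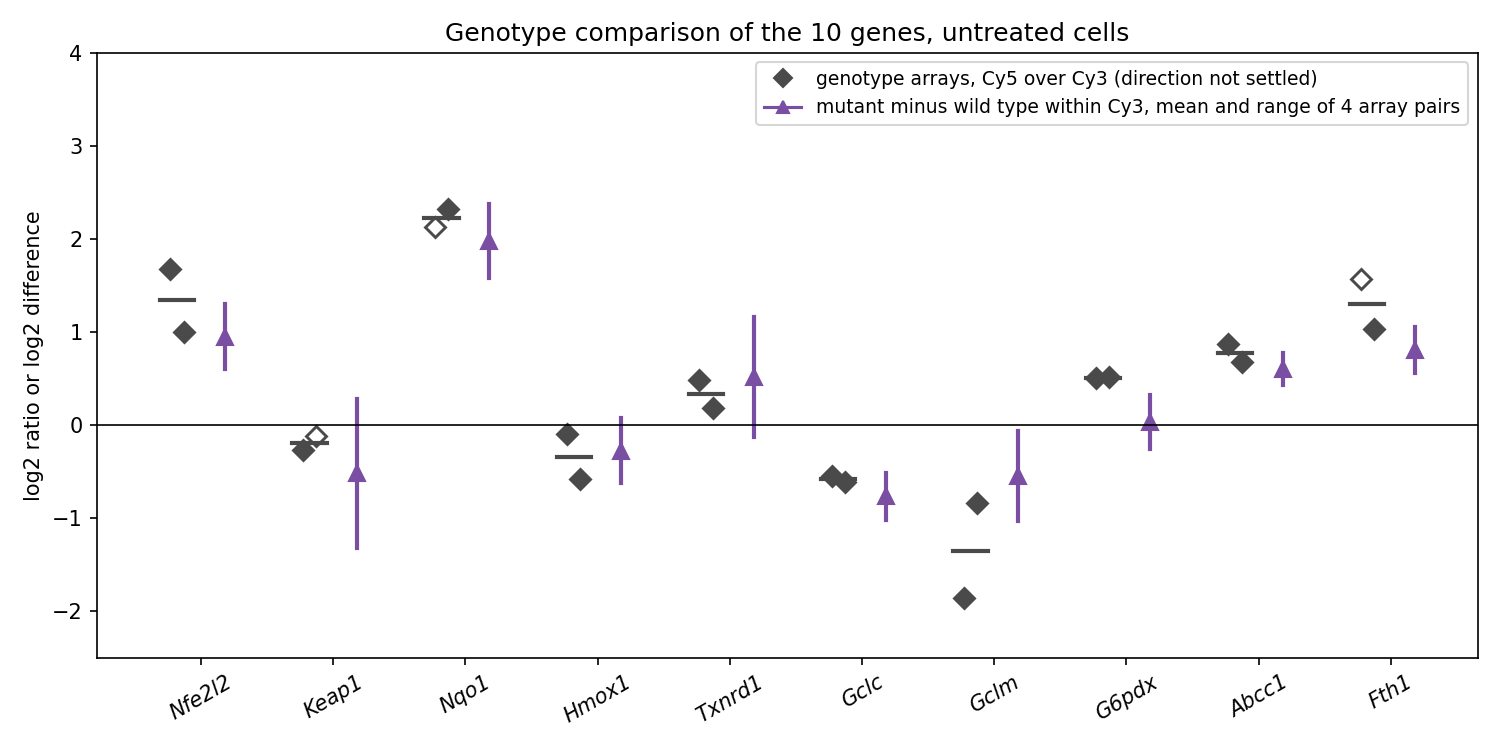
Diamonds give the log2 ratio of Cy5 over Cy3 for each gene on the 2 genotype arrays (bar, mean; open, spot marked as an outlier), and triangles the mutant minus wild type difference of untreated cells within Cy3 of the treatment arrays, with the range over the 4 pairings of a mutant with a wild type array. Nqo1 was highest in both (2.12 and 2.32 on the arrays, 1.97 within Cy3), and Gclc and Gclm lay below 0 in both.

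The rest of the pathway was described by 61 other genes in 7 roles, of which 60 were on the array. In treated wild type cells 53 had a value and 1 was called, against 0.258% of all probes. This was Abcc4, a further exporter, with log2 ratios of 1.50 and 1.44 (fitted value 1.47, SE 0.17, limma adjusted p = 0.0404). In mutant cells Abcc4 had 0.30 and 0.33, and the difference of the responses was -1.15 (SE 0.24, adjusted p = 0.558). When marked spots were kept, 6 of 60 were called in wild type cells, against 2.39% of all probes. These were Abcc4, the pentose phosphate enzyme Taldo1 (1.30), the cystine transporter subunit Slc3a2 (1.28), the autophagy receptor Sqstm1 (1.16) and the glutathione S-transferase Gsta2 (0.98), which rose, and the glutaredoxin Glrx (-0.91), which fell. The Gsta2 probe was dim, at a mean log2 intensity of 4.39. Gsta2 may share signal with its near copy Gsta1, which had 0.47 and 0.24, both from marked spots. With marked spots left out, the median log2 ratio of the list was 0.26 in wild type cells, and it was highest for the detoxification genes (0.36 over 15 genes). In mutant cells 60 genes had a value, none was called, and the median was 0.04. Among those with the same sign on both mutant arrays, the highest means were those of Ptgr1 (0.68), Aldh3a1 (0.64), Taldo1 (0.64) and Nqo2 (0.54), enzymes of detoxification or, for Taldo1, of the pentose phosphate pathway. The lowest were Ces1g (-1.43), Mafg (-0.76), Tkt (-0.73) and Ftl1 (-0.64), none of which passed the adjusted threshold.

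On the genotype arrays 25 of the 58 list genes with a value were called, 21 with more Cy5 and 4 with less, against 9.83% and 9.78% of all probes. Among probes well above background in both dyes on both genotype arrays, fitted alone, 36.9% were called in either direction. Keeping marked spots gave 29 of 60, 24 with more Cy5, against 11.2% of all probes, and 5 with less, against 11.2%. The detoxification genes made up 11 of the 21, out of 16 with a value, with a median log2 ratio of 1.04. The largest was Slc40a1, which encodes the iron exporter ferroportin, with 3.96 and 3.95 on the arrays (fitted value 3.95, SE 0.19, limma adjusted p = 0.00031). Gstm3 and Gstm1, glutathione S-transferases whose close sequences may share signal, had fitted values of 2.24 and 2.19, and Gsta1, of the same superfamily, had 1.68 from 1 array and 1.05 with its marked spot. The 4 with less Cy5 were Glrx (-1.27), Mafg (-1.24), Ftl1 (-1.17 from 1 array, and -0.62 and not called with its marked spot) and Me1 (-0.97). Within Cy3, where the direction is settled, Slc40a1 was the single list gene called, where 0.420% of all probes were. It was higher in untreated mutant than in untreated wild type cells by 2.88 (SE 0.35, limma adjusted p = 0.00644). Within Cy5 it was again the single one, where 0.377% of all probes were called, higher in treated mutant cells by 2.85 (SE 0.45, adjusted p = 0.0311).

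**Figure D4:**
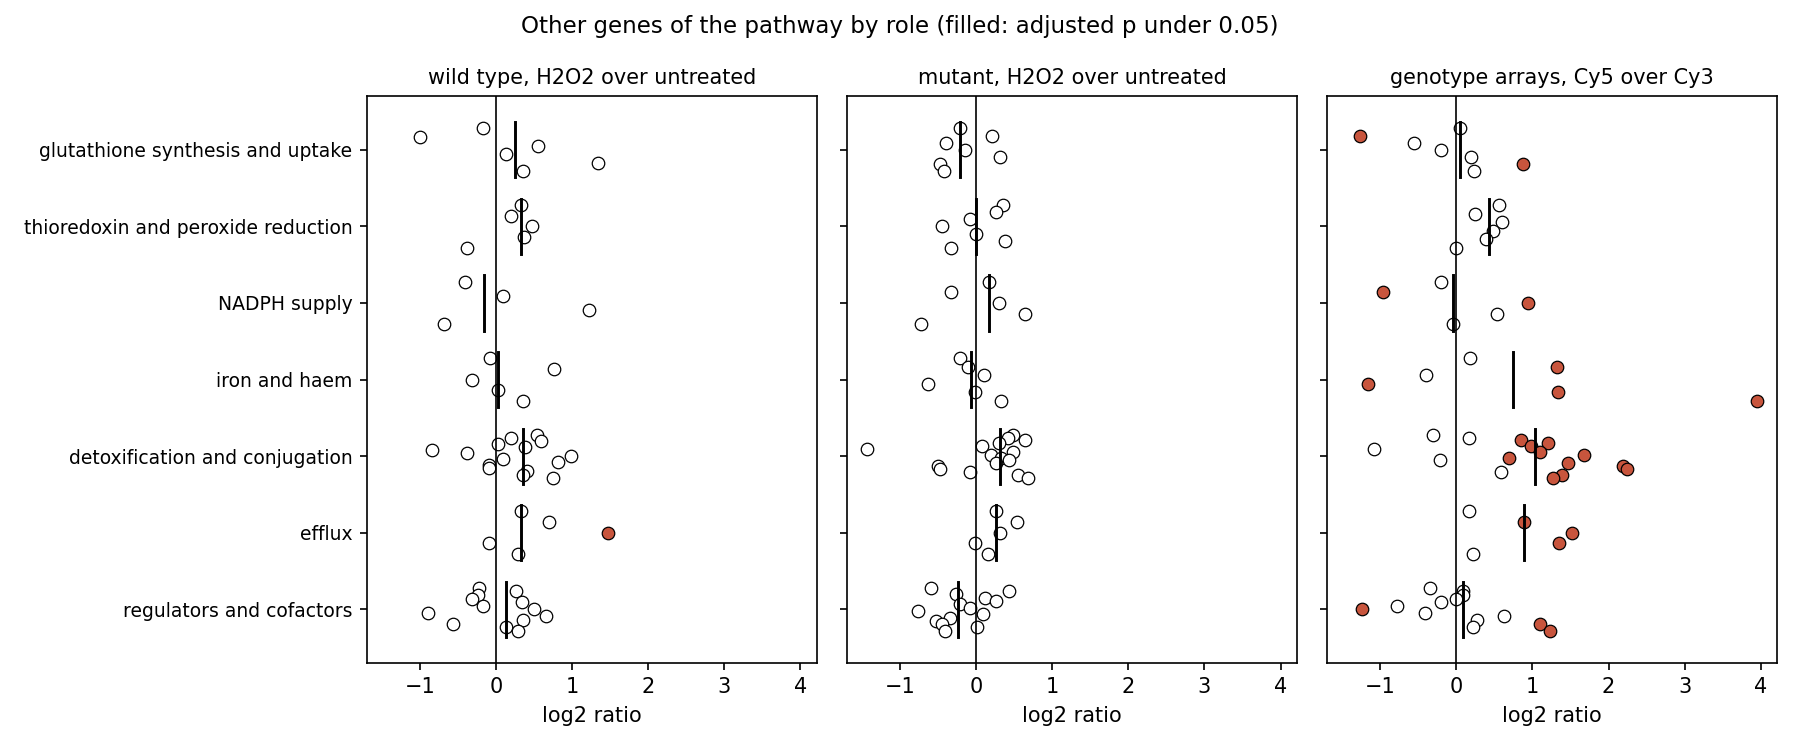
Log2 ratios of the other pathway genes by role, 1 point per gene, for treated over untreated wild type cells, treated over untreated mutant cells and the genotype arrays as Cy5 over Cy3, with marked spots left out, filled points for an adjusted p under 0.05 and bars at the median of each role. The filled points were 1 exporter (Abcc4, 1.47) in wild type cells, none in mutant cells, and 21 above and 4 below 0 on the genotype arrays.

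The pattern of Nqo1 over the 6 arrays was set beside that of 38683 probes with a value on each, by Euclidean distance of the log2 ratios with marked spots kept. The nearest gene symbols were 4933414I15Rik (distance 0.70), Tyw1 (0.86), Phyh (0.92), AK042648 (0.94) and XM_145592 (0.96). Phyh, a peroxisomal hydroxylase of fatty acid oxidation, had 1.39 and 1.27 on the wild type arrays, 0.69 and 0.66 on the mutant arrays and 2.60 and 2.03 on the genotype arrays. Among the other 9 genes of the pathway the nearest to Nqo1 was Nfe2l2, at a distance of 1.89, and the farthest was Gclm, at 5.61. The closest pair of members was Abcc1 and G6pdx, at a distance of 0.53.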

How the data were processed

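Per the labels, each sample is 1 array with RNA in both dyes, with 2 biological replicates per comparison, on Agilent whole mouse genome 60-mer arrays. The authors deposited, per spot, the mean intensity and background intensity of Cy3 and Cy5 with the flags and the log10 ratio of Feature Extraction (A.7.5.1 per the file headers), and a value table of the series in log2 ratios, Cy5 over Cy3. On each array that table correlated at 0.9994 or more with the ratios computed here (marked spots kept, genes not centred). The labels name total RNA and the methods cytoplasmic RNA.

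From the deposited intensity values, the background median was subtracted and ratios were loess normalized within arrays with limma 3.58.1 in R 4.3.3 (package data.table, version 1.17.8). Control spots and spots marked as non-uniform or population outliers had weight 0 and were left out, and saturated spots were kept. One lmFit and eBayes model over the 6 arrays held a coefficient for each of the 3 comparisons, so that they share an estimate of the spread, and had 3 residual degrees of freedom. The contrast of both responses came from the same fit. Within-dye comparisons used Aquantile normalization of the 4 treatment arrays. Two-sided p-values were adjusted (Benjamini-Hochberg) over every non-control probe that had a value, and a call was an adjusted p under 0.05. The number of arrays limits the precision. Each array is a slide of its own. The extraction software processed the 4 treatment arrays on 1 day and the genotype arrays on 2 others. The day of this processing and the comparison thus cannot be told apart between them.

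The 10 genes and the list of 61 others were chosen with earlier results of these data known, and all 10 are reported. Of the list, called genes were named, at most 4 in each direction, or else the 4 largest in each direction with the same sign on both arrays. The 5 symbols nearest to Nqo1 were named. Array names were updated through RefSeq accessions (GRCm38.p6), which matched 15402 of 16369. The steps were tested on simulated data. Alternatives were normexp with an offset of 50, marked spots kept, median centring, Feature Extraction ratios, the series table, separate fits, leaving out arrays, a filter on dim probes, gene means, the methods' thresholds (fold 2, mean log2 intensity 6, adjusted p 0.005), other between-array normalizations and the replicate number as a block. Python 3.11.15 with pandas 2.3.3 served for summaries, and matplotlib 3.10.9 for figures.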

Additional observations from a re-analysis of the deposited data

Results flagged for a closer look

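For 12 of the 60 other pathway genes the H2O2 response had opposite signs in the 2 genotypes on all 4 treatment arrays, with marked spots kept, against 11.9% of all probes. Values are log2 ratios of treated over untreated cells, and each difference, mutant minus wild type, was tested with limma as a contrast of its own. The ratios were above 0 in wild type cells and below 0 in mutant cells for 8 genes. Slc3a2, a subunit of the cystine transporter, had 1.38 and 1.19 in wild type cells, the latter from a marked spot. In mutant cells it had -0.58 and -0.29, a difference of -1.72 (adjusted p = 0.225). Sqstm1, a scaffold protein that binds KEAP1, had 0.95 and 1.38 against -0.39 and -0.27, a difference of -1.49 (adjusted p = 0.263). The difference was -0.78 for Slc7a11, the other subunit of that transporter, -0.71 for the glutathione reductase Gsr, -0.69 for Nfe2l1, -0.53 for Gstp1, -0.51 for Maff and -0.46 for Prdx6. The signs were the other way round for 4 genes. Glrx, a glutaredoxin, had -0.96 and -0.86 against 0.28 and 0.18, a difference of 1.13 (adjusted p = 0.335). The difference was 1.19 for Idh1, 0.91 for the epoxide hydrolase Ephx1 and 0.45 for Fech. The mutant ratios of Gstp1 (-0.008 and -0.02) and Maff (-0.04 and -0.12) lay near 0, so their signs say little. The Slc7a11 probe was dim, at a mean log2 intensity of 4.39. Both wild type spots of Sqstm1, Glrx and Idh1 were marked, so these genes had no wild type value without them. None of the 12 differences passed the adjusted threshold.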

How the results depend on the processing

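Of 760 values of single members under another setting, 646 kept their direction and side of the threshold, 62 newly passed it, 23 no longer passed it and 29 turned sign. In wild type cells 0 members were called, against 3 with marked spots kept (2.39% of all probes), the value table (2.42%) or normexp (5.56%). The count was 2 with probes well above background (5.01%), 1 with Feature Extraction ratios (1.43%) and 7 on their own arrays (25.1%). It was 7 without either genotype array (22.8%) and 0 without either mutant array (0%). In mutant cells 0 became 3 under median centring (4.57% of all probes), on their own arrays (10.7%) or without either genotype array (9.91%). It stayed 0 without either wild type array (0%). With the replicate number as a block of the 4 treatment arrays the counts were 4 in wild type and 2 in mutant cells, where 16.3% and 4.60% of all probes were called, although same-numbered arrays did not deviate together (r = -0.046). On the genotype arrays 5 became 3 under median centring (10.6% of all probes), 2 with Feature Extraction ratios (8.16%), 1 on their own arrays, 0 at the methods' thresholds, and 3 to 6 without single arrays. For the difference of the responses the count was 0 under every setting run (0% to 1.27% of all probes). With marked spots left out 1 member, Gclc, had a limma unadjusted p under 0.05 (5.94% of all probes). With them kept, Gclc and Txnrd1 did (6.52%). Within Cy3 0 became 1 with marked spots kept (0.639% of all probes) or with Aquantile over all spots (1.73%, chosen after seeing the data). The count also changed without single arrays, which leaves 1 array in a group. Within Cy5 1 became 0 with gene means, no loess, normexp, marked spots kept or the block (0% to 0.325% of all probes), and changed likewise without single arrays. The cause was not tested.

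Signs turned as follows. Median centring gave Keap1 0.11 in wild type cells, 0.73 in mutant cells and 0.19 on the genotype arrays, Hmox1 0.094 on those arrays, and differences of the responses of 0.083 for Abcc1, 0.060 for Gclm and 0.16 for Hmox1. Feature Extraction ratios gave Gclm 0.021 for that difference and Hmox1 -0.0019 in mutant cells, and normexp gave Hmox1 -0.034 there and G6pdx a difference of -0.00015. The Keap1 difference was -0.0012 with marked spots kept and -0.0011 in the value table. With marked spots kept, G6pdx had 0.049 within Cy5 and 0.030 within Cy3, as with Aquantile over all spots, and Txnrd1 had 0.52 within Cy3. Aquantile over all spots gave Keap1 0.17 within Cy5 and 0.057 within Cy3, and no loess gave Keap1 0.10 and Hmox1 0.015 within Cy5. Without single arrays the difference of the responses ran from -0.10 to 0.14 for G6pdx, -0.11 to 0.048 for Gclm and -0.85 to 0.56 for Hmox1, Hmox1 in mutant cells from -0.69 to 0.73 and within Cy5 from -1.14 to 0.45, and Txnrd1 within Cy3 from -0.52 to 0.0017.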
